A study of Mus musculus with 25 samples.

Results

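The mitochondrial ribosomal protein genes analysed here are the genes whose symbols begin with *Mrpl* (large subunit) or *Mrps* (small subunit) followed by a digit. The deposited expression table held 81 of them among 23116 genes, 50 *Mrpl* and 31 *Mrps* genes. Of these, 4 are pseudogenes (*Mrpl23-ps1*, *Mrpl48-ps*, *Mrps36-ps1* and *Mrps36-ps2*), which left 48 large subunit and 29 small subunit protein-coding genes. All 81 passed the filter on low values. RNA had been sequenced from HSLAM cells, the LSK+ CD150+ CD48- population of bone marrow in which hematopoietic stem cells are enriched, of adult C57BL/6 male mice of 8 to 12 weeks. There were 3 libraries of *Znf143 f/f* x *Rosa26ERT2-Cre-* mice (written *Znf143 f/f*, labelled WT) and 3 libraries of littermates carrying *Znf143 f/f* x *Rosa26ERT2-Cre+* (written *Znf143 -/-*, labelled KO). LoxP sites flank exon 1 of *Znf143* in both groups, and both received tamoxifen for 10 days. The *Rosa26* locus drives the inducible Cre in all tissues, and the control mice lack Cre, so that loss of *Znf143*, the activity of Cre and effects from cells other than blood cells cannot be told apart. ChIP-seq and HiC samples were not analysed here.

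Mitochondria hold a ribosome of their own, which translates the few mRNAs of the mitochondrial DNA into membrane subunits of the respiratory chain complexes and ATP synthase. Its ribosomal RNAs come from the mitochondrial DNA, whereas all its proteins are encoded in the nucleus and imported, so that many nuclear genes have to supply them together. The small subunit binds and decodes the mRNA, the large subunit forms the peptide bond and holds the exit tunnel, and many of the proteins of both have no counterpart in bacteria. ZNF143 (mouse gene *Zfp143*) is a zinc finger protein that binds promoters of many housekeeping genes.

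*Zfp143*, the deleted gene, was at 3.07, 4.43 and 3.66 FPKM in *Znf143 f/f* libraries, compared with 0.155, 0.298 and 0.27 FPKM in *Znf143 -/-* libraries. FPKM are fragments per kilobase of gene length, scaled to the depth of the library, and all FPKM given here were rescaled by size factors so that the median gene was level between libraries. The log2 fold change, *Znf143 -/-* over *Znf143 f/f*, was -3.50 (SE 0.239, adjusted p = 0.001, limma). The genotype label calls the deleted mice a CTCF knockout, and the level of *Zfp143* in each library follows the genotype that the study's methods give. The fragments assigned to genes ranged from 38643255 to 57895793 among the libraries. All 10 stem cell markers were above the filter, and 7 of them had log2 fold changes below 0 (median -0.338), of which *Mecom*, a regulator of stem cell maintenance, was called (-0.55, adjusted p = 0.0208). *Ly6a*, which encodes the sorting marker Sca-1, rose by 1.13 (adjusted p = 0.00452). The summed level of the other 9 was 241 to 249 FPKM in *Znf143 f/f* libraries, compared with 168 to 220 FPKM in *Znf143 -/-* libraries, and with *Ly6a* it was 483 to 538 and 760 to 807 FPKM. *Flt3* and *Cd48*, which mark multipotent progenitors, rose by 1.59 (SE 0.0809) and 0.97 (SE 0.0895) on the log2 scale (adjusted p 0.000415 and 0.00307), and *Elane*, of granulocyte progenitors, rose by 3.94 (SE 0.711, adjusted p = 0.0283) from a low level. Summed over the 6 progenitor markers, the level was 47.3 to 53.7 FPKM in *Znf143 f/f* libraries, compared with 75 to 86.3 FPKM in *Znf143 -/-* libraries. The summed level of 4 megakaryocyte markers, of which none was called (1 higher with voom, 2 at an unadjusted p under 0.05), was 527 to 599 FPKM against 646 to 977 FPKM. That of 5 erythroid markers was 39.6 to 179 against 30.5 to 32.1 FPKM, with *Hbb-bt*, a beta globin gene, called lower (-1.38, adjusted p = 0.0273). Without *Car1*, the highest of them, the erythroid sums overlapped (23.8 to 38.1 against 21.7 to 25.3 FPKM). Of 3 monocyte and macrophage markers, *Lyz2* made up most of the sum of 546 to 586 against 434 to 451 FPKM and was not called, whereas *Csf1r* was called higher (1.56, adjusted p = 0.031) at a mean of 0.214 FPKM in *Znf143 -/-* libraries, and the sums of *Csf1r* and *Cd68* overlapped (15.5 to 19.6 against 18 to 22 FPKM). Of 3 B cell markers in the table, none reached the filter. Of 4 T cell markers, 2 reached it and none was called, with *Trac* higher at an unadjusted p of 0.0489 (limma). Their sums overlapped at a low level (0.19 to 0.804 against 0.706 to 1.27 FPKM). Without *Cd3d*, the highest of them, the sums were 0.0127 to 0.0434 against 0.0724 to 0.724 FPKM. The part of these shifts in the members' values was not tested. In RNA of sorted cells, fewer cells that express a gene and less RNA of it per cell cannot be told apart.

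In *Znf143 -/-* HSLAM cells, 4 protein-coding members fell, *Mrps25*, *Mrpl34*, *Mrpl24* and *Mrps26*, and no protein-coding member rose. The other 73 protein-coding members did not pass the test (adjusted p under 0.05 over 19279 tested genes). Together with the pseudogene *Mrpl48-ps*, which rose, 5 of 81 members (6.17%) were called, and 5.99% of all tested genes were. By direction, 4 of 81 members fell and 2.99% of all tested genes did. In the large subunit 2 of 50 genes fell, 1 rose (the pseudogene) and 47 were not called, and the median of the log2 fold changes stood at 0.047. In the small subunit 2 of 31 genes fell, none rose and 29 were not called, and the median was 0.081. At an unadjusted p under 0.05, 2 large and 4 small subunit protein-coding genes were higher, and 3 large and 2 small subunit genes were lower. At that threshold, 2391 of all 19279 tested genes were higher and 2269 lower. With limma's voom on recovered fragments, 4 members were called lower and 1, of the small subunit (*Mrps22*), higher. Of the 19279 tested genes, voom called 745 lower and 656 higher. Over all tested genes the median was 0.006. The middle range of the members was narrower than that of all genes, with quartiles of -0.03 and 0.15 against -0.25 and 0.26. For 59 of 81 members the 95% confidence interval of the fold change lay within 1.5-fold in either direction, and for 75 of 81 within 2-fold. It did so for 6306 and 12002 of the 19279 tested genes. These reach down to a mean of 0.1 FPKM, and the median SE was 0.135 for members and 0.203 for all tested genes. The part of expression level in these differences was not tested.

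**Figure D1:**
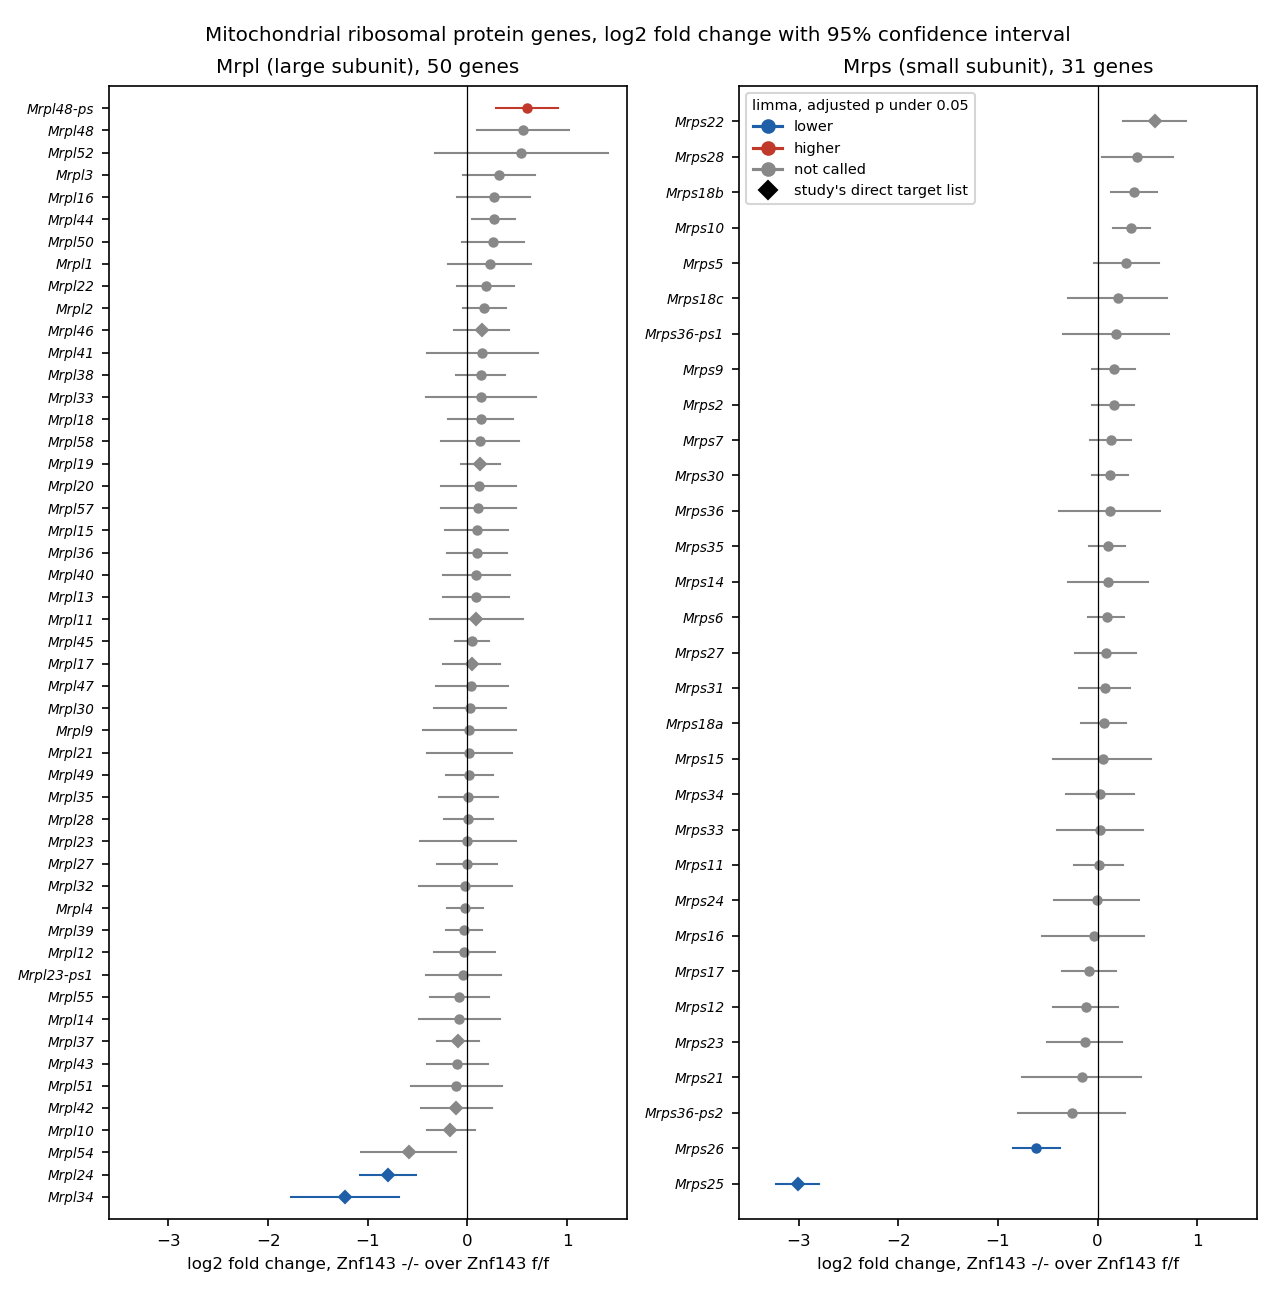
Log2 fold change (*Znf143 -/-* over *Znf143 f/f*, x axis) of each *Mrpl* gene (left, 50 genes) and *Mrps* gene (right, 31 genes), with points for the estimate and lines for the 95% confidence interval from limma with 3 libraries per genotype. *Mrps25* (-3.01) lies apart from the other small subunit genes, *Mrpl34* (-1.23) and *Mrpl24* (-0.80) are the lowest large subunit genes, and the others crowd around 0.

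*Mrps25* had the largest change of the 81 members. It encodes mS25, a small subunit protein that bacteria lack, and lies on chr6:92169525-92184033 (GRCm38, minus strand). It was at 16, 17.7 and 16.4 FPKM in *Znf143 f/f* libraries, compared with 1.99, 1.98 and 1.98 FPKM in *Znf143 -/-* libraries. The groups did not overlap, and the 3 deleted libraries were nearly equal, with means of 16.7 ± 0.9 and 1.98 ± 0.00989 FPKM (SD, n = 3). The *Znf143 -/-* mean was 11.9% of the control mean, a log2 fold change of -3.01 (SE 0.0902, 95% confidence interval -3.23 to -2.80, adjusted p = 7.03e-05). At least 582 fragments lay on *Mrps25* in each library, so that its low level was well above the counting floor of 3 fragments. It was the lowest protein-coding member in *Znf143 -/-* cells, where the next lowest, *Mrpl47*, had a mean of 11.2 FPKM, whereas in control cells it ranked 64 of 81. *Mrps25* was called in all 16 alternative fits that kept it, with log2 fold changes of -3.07 to -2.57 and adjusted p of 3.11e-05 to 0.0138.

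*Mrpl34* encodes bL34m, a small basic large subunit protein with a bacterial counterpart, on chr8:71464959-71465747 (plus strand). Its level was 280, 404 and 293 FPKM in *Znf143 f/f* libraries, compared with 184, 112 and 125 FPKM in *Znf143 -/-* libraries. The groups did not overlap, and in both of them the library with the highest *Mrpl34* was the one that was high for most members. The log2 fold change was -1.23 (SE 0.226, adjusted p = 0.0306). In control cells *Mrpl34* was the most abundant member per length, and in *Znf143 -/-* cells it ranked 10 of 81.

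*Mrpl24* encodes uL24m, a protein found in all ribosomes that sits at the exit tunnel, on chr3:87919506-87923672 (plus strand). It was at 41.4, 47.9 and 42 FPKM in *Znf143 f/f* libraries, compared with 28.6, 22.3 and 24.4 FPKM in *Znf143 -/-* libraries. All deleted libraries were below all control libraries, with a log2 fold change of -0.80 (SE 0.117, adjusted p = 0.0146). *Mrps26* encodes mS26, a small subunit protein without a bacterial counterpart, on chr2:130563742-130568695 (plus strand). Its level was 22.7, 26 and 21.7 FPKM in *Znf143 f/f* libraries, compared with 16, 15.1 and 14.6 FPKM in *Znf143 -/-* libraries. The groups did not overlap, and the log2 fold change was -0.62 (SE 0.0968, adjusted p = 0.0183). A 2-sided exact permutation test of a single gene cannot go below p = 0.1 with 3 libraries against 3, which is the value each of these 4 genes reached. The calls of *Mrpl34*, *Mrpl24* and *Mrps26* were lost when any of 4 libraries was left out, the first or the third *Znf143 f/f* library or the second or the third *Znf143 -/-* library, with adjusted p of up to 0.132, 0.0891 and 0.109 over all alternatives. With FPKM as deposited, *Mrps26* was not called either (-0.50, adjusted p = 0.101). The direction of the 3 genes held in all 16 alternatives.

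**Figure D2:**
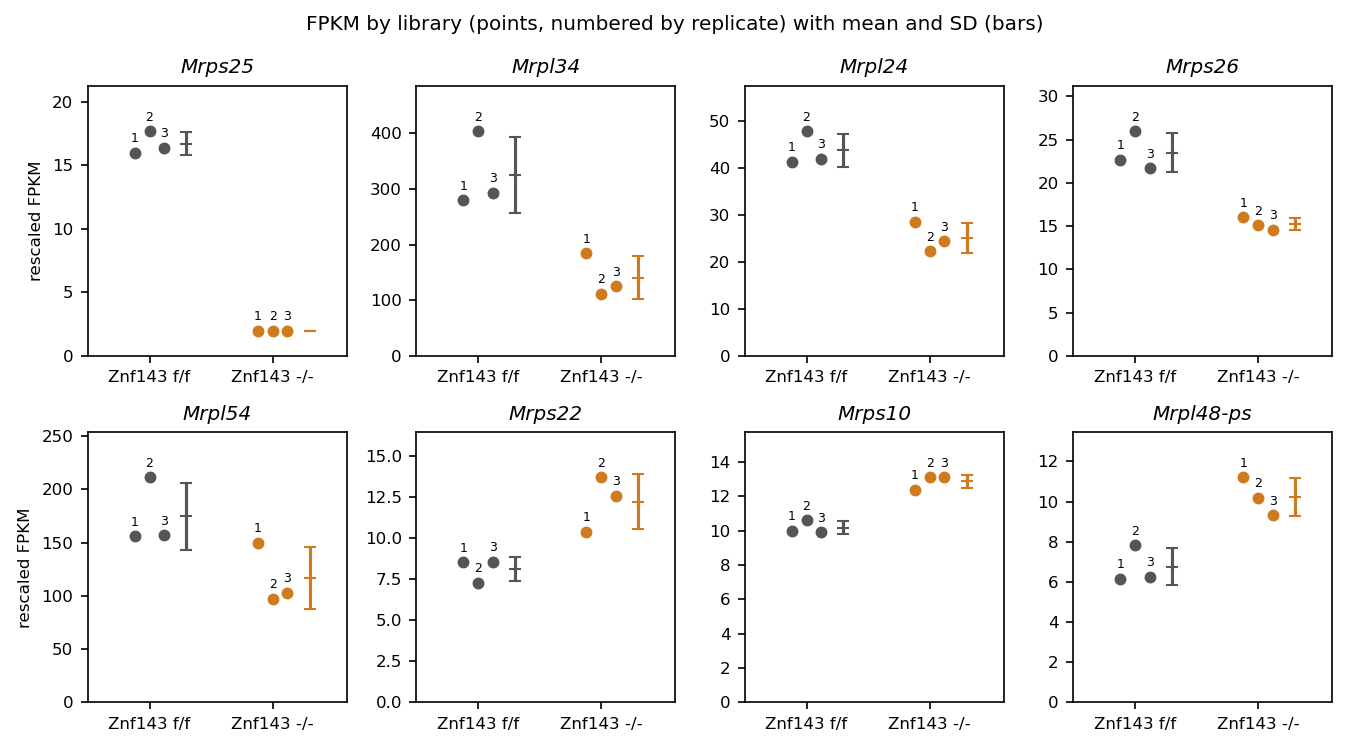
Rescaled FPKM (y axis, from 0) of 8 members in each library, numbered by replicate, for *Znf143 f/f* (grey) and *Znf143 -/-* (orange), with mean and SD beside the points. The 3 deleted libraries lie below all control libraries for *Mrps25*, *Mrpl34*, *Mrpl24*, *Mrps26* and *Mrpl54*, and above them for *Mrps22*, *Mrps10* and *Mrpl48-ps*; *Mrpl54*, *Mrps22* and *Mrps10* did not pass the test.

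Some members did not pass the test, though their groups did not overlap. *Mrps22*, of the small subunit (mS22), was at 8.53, 7.28 and 8.57 FPKM in *Znf143 f/f* libraries, compared with 10.4, 13.7 and 12.6 FPKM in *Znf143 -/-* libraries (log2 fold change 0.58, SE 0.132, adjusted p = 0.0546). *Mrps10* (uS10m), chosen after its values were seen, was at 10, 10.6 and 9.92 against 12.4, 13.1 and 13.1 FPKM (log2 fold change 0.34, adjusted p = 0.0587). *Mrps18b* (mS40), also chosen after its values were seen, was at 14.7, 12.6 and 13 against 18.5, 16 and 17.7 FPKM (log2 fold change 0.37, adjusted p = 0.0807). For each of these genes, the deleted libraries lay above the control libraries without overlap. *Mrpl54* (mL54) was at 156, 211 and 157 FPKM in *Znf143 f/f* libraries, compared with 150, 97.1 and 103 FPKM in *Znf143 -/-* libraries, and its log2 fold change was -0.59 (95% confidence interval -1.07 to -0.11, adjusted p = 0.138). Its highest deleted library lay close to its lowest control library. In all, 5 members lay lower without overlap of the groups and 10 higher, or 6.17% and 12.3% of the members, against 15.3% and 15.4% of all tested genes.

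The pseudogene *Mrpl48-ps* (chr4:88599175-88599810) was at 6.17, 7.82 and 6.26 FPKM in *Znf143 f/f* libraries, compared with 11.2, 10.2 and 9.32 FPKM in *Znf143 -/-* libraries (log2 fold change 0.60, SE 0.129, adjusted p = 0.0461). Its parent gene *Mrpl48* (mL48) was at 8.93, 14.1 and 9.58 FPKM against 18.4, 14.1 and 15 FPKM (log2 fold change 0.56, adjusted p = 0.144). Both had log2 fold changes above 0, and only the pseudogene passed the test. A processed pseudogene is a copy of its parent's mRNA, and the counting may split reads between them, so that either value is uncertain. The call was also lost in 9 of 16 alternatives.

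The levels of the members spanned a wide range in both genotypes. In *Znf143 f/f* cells the protein-coding members had mean levels of 8.13 FPKM (*Mrps22*) to 326 FPKM (*Mrpl34*), with a median of 42.8 FPKM. In *Znf143 -/-* cells the range was 1.98 FPKM (*Mrps25*) to 284 FPKM (*Mrpl52*) around a median of 41.7 FPKM. Besides *Mrpl34*, the most abundant large subunit genes were *Mrpl52*, *Mrpl36*, *Mrpl28* and *Mrpl14*. *Mrpl36* went from 205 ± 27.1 to 219 ± 19.2 FPKM (SD, n = 3) and *Mrpl28* from 210 ± 21.2 to 212 ± 3.74 FPKM, log2 fold changes of 0.10 (95% confidence interval -0.20 to 0.40) and 0.01 (-0.23 to 0.26). *Mrpl52* varied most, with 139, 285 and 160 FPKM in *Znf143 f/f* libraries, compared with 423, 199 and 230 FPKM in *Znf143 -/-* libraries, so that its groups overlapped and the interval of its log2 fold change ran from -0.33 to 1.41. In the small subunit *Mrps28*, *Mrps21*, *Mrps24*, *Mrps14* and *Mrps18c* were highest. *Mrps24* (uS3m) was at 154 ± 27.6 and 153 ± 29.9 FPKM, with a log2 fold change of -0.01 (95% confidence interval -0.44 to 0.42). *Mrps28* was at 194 ± 20 and 258 ± 45.1 FPKM and lay higher without overlap, with an adjusted p of 0.166. At the low end, *Mrpl47* had 10.8 ± 1.16 and 11.2 ± 2.11 FPKM, *Mrpl1* had 12.1 ± 2.27 and 14.2 ± 2.4 FPKM, and *Mrps5* had 10.4 ± 2 and 12.5 ± 0.24 FPKM. None of these passed the test.

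**Figure D3:**
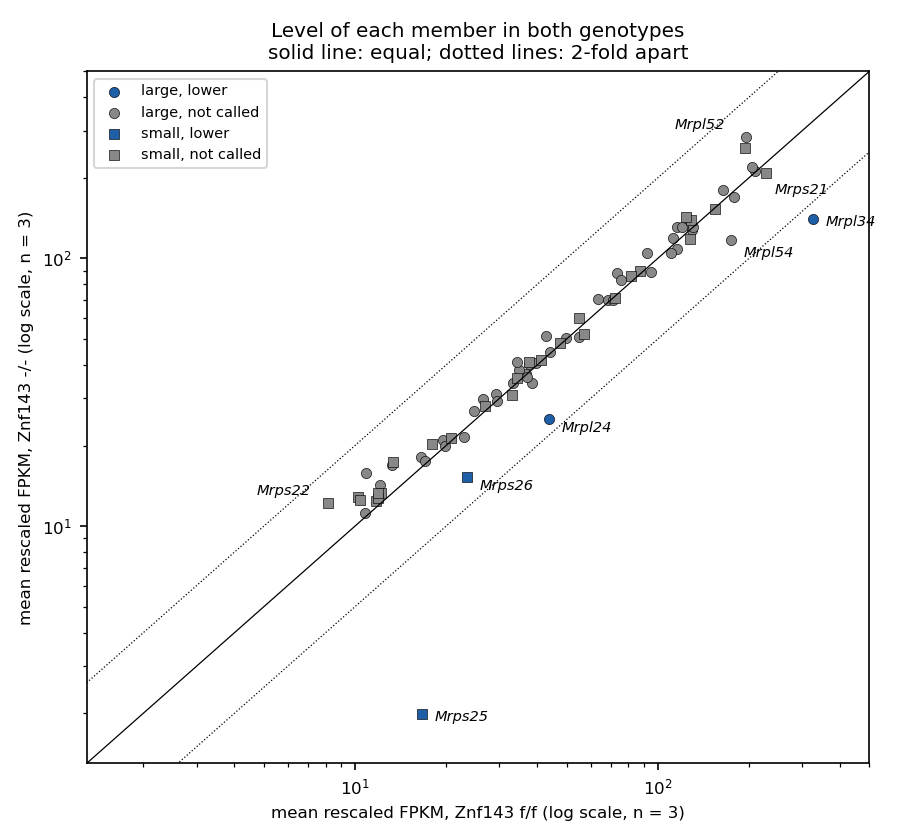
Mean rescaled FPKM of the 77 protein-coding members in *Znf143 f/f* (x axis) and *Znf143 -/-* cells (y axis), both on a log scale with 3 libraries each. Circles are *Mrpl* and squares *Mrps* genes, blue marks genes called lower, and *Mrps25* (16.7 to 1.98 FPKM) and *Mrpl34* (326 to 140 FPKM) lie below the dotted line for 2-fold lower.

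Summed over its protein-coding genes, the large subunit was at 3397, 4345 and 3462 FPKM in *Znf143 f/f* libraries, compared with 4328, 3300 and 3440 FPKM in *Znf143 -/-* libraries. The small subunit summed to 1549, 1977 and 1573 FPKM in *Znf143 f/f* libraries, compared with 2111, 1558 and 1642 FPKM in *Znf143 -/-* libraries. In each sum the second *Znf143 f/f* and the first *Znf143 -/-* library stood above the other libraries, and the genotypes overlapped. These sums and their ratio follow the gene symbols. The small subunit sum thus holds *Mrps36*, *Mrps18a* and *Mrps30*, whose proteins are placed elsewhere below. The ratio of the large to the small subunit sum was 2.19, 2.20 and 2.20 in *Znf143 f/f* libraries, compared with 2.05, 2.12 and 2.10 in *Znf143 -/-* libraries, without overlap. Without *Mrpl34* the ratio was 2.01, 1.99 and 2.02 against 1.96, 2.05 and 2.02, and the genotypes overlapped.

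Grouped by ancestry, 1 of 27 protein-coding members found in all ribosomes fell (*Mrpl24*), 1 of 19 shared with bacteria (*Mrpl34*) and 2 of 30 specific to mitochondria (*Mrps25* and *Mrps26*). These are 3.7%, 5.26% and 6.67% of the classes, counts of 1 or 2 genes beside 2.99% of all tested genes. The median log2 fold changes of the classes were 0.092, 0.021 and 0.076. *Mrps36* was left out of this grouping, since its protein is now placed in a dehydrogenase complex. The proteins of *Mrps18a* and *Mrps30* sit in the large subunit, and with these counted there, the numbers that fell were 2 of 50 in the large and 2 of 26 in the small subunit.

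The second *Znf143 f/f* and the first *Znf143 -/-* library had higher values for most members than the other libraries of their genotype. Over the 77 protein-coding members, the median ratio to the mean of the other 2 libraries was 1.20 for the second *Znf143 f/f* and 1.23 for the first *Znf143 -/-* library, and 60 members had a ratio above 1 in both. The ratio differed with gene length. It was 1.29 and 1.46 for the 8 members under 1000 bases, 1.25 and 1.23 for the 23 members of 1000 to under 2000 bases, and 1.16 and 1.17 for the 46 longer members. Over the 12529 genes with a mean of at least 1 FPKM the medians were 1.25 and 1.39 under 1000 bases and 0.95 and 0.93 from 2000 bases. The second *Znf143 f/f* library also had the highest summed level of the 5 erythroid markers, 179 FPKM, where the other *Znf143 f/f* libraries had 39.6 and 45.6 FPKM and the *Znf143 -/-* libraries 30.5 to 32.1 FPKM. Its part in the members' values was not tested. With both libraries left out, *Mrps25*, *Mrpl34*, *Mrpl24* and *Mrps26* were called lower, and counts rose to 5 lower and 14 higher of 50 large subunit genes and 3 lower and 11 higher of 31 small subunit genes. In that fit, 42.4% of all tested genes were called. The 2 libraries left in each genotype were those most alike in these values, so that its p-values are too small.

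**Figure D4:**
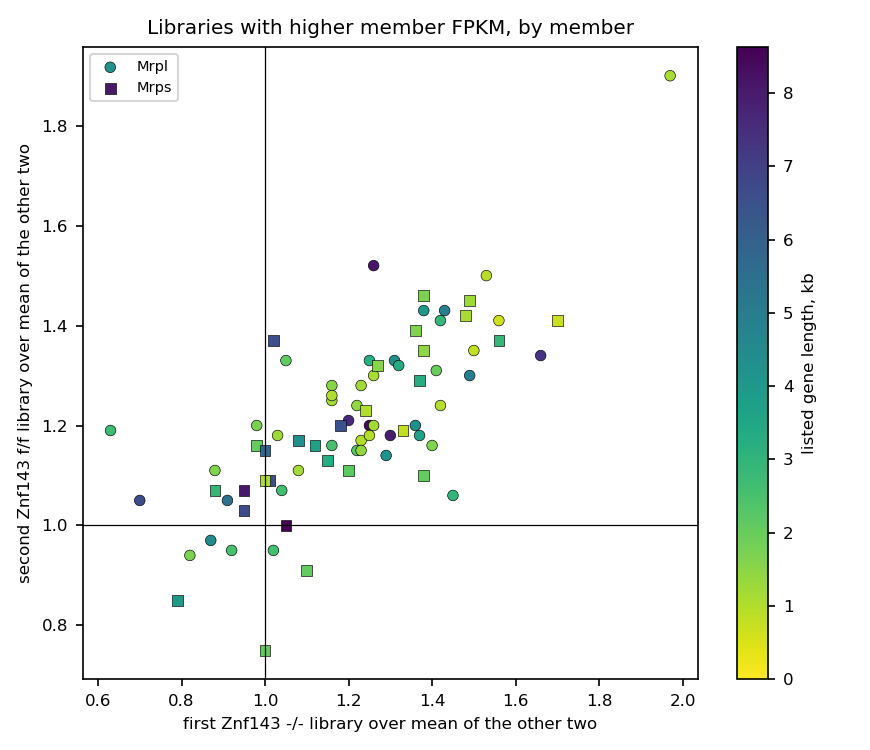
For each of the 77 protein-coding members, the FPKM of the first *Znf143 -/-* library over the mean of the other 2 *Znf143 -/-* libraries (x axis) and of the second *Znf143 f/f* library over the mean of the other 2 *Znf143 f/f* libraries (y axis), coloured by listed gene length. Both ratios are above 1 for 60 members, with *Mrpl52* at the upper right.

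The study lists direct targets of ZNF143, which it chose by combining promoter peaks with the expression of these same samples, so that the list is not independent evidence of a direction. It names 12 members, *Mrpl10*, *Mrpl11*, *Mrpl17*, *Mrpl19*, *Mrpl24*, *Mrpl34*, *Mrpl37*, *Mrpl42*, *Mrpl46*, *Mrpl54*, *Mrps22* and *Mrps25*. Of these, 3 fell (25%), none rose (1, *Mrps22*, with voom and at an unadjusted p under 0.05) and 9 were not called, with a median log2 fold change of -0.102. Over all 1345 tested genes of the list, 13.5% fell and 2.16% rose. Of the 65 protein-coding members not on the list, 1 fell (*Mrps26*) and the median was 0.085. The members on the list differed widely. *Mrpl37* was at 23 ± 1.03 and 21.6 ± 1.74 FPKM (log2 fold change -0.09, 95% confidence interval -0.31 to 0.12) and *Mrpl19* at 16.5 ± 0.646 and 18.1 ± 0.992 FPKM (0.13, -0.06 to 0.33). *Mrpl10* (-0.17), *Mrpl11* (0.09), *Mrpl17* (0.05), *Mrpl42* (-0.11) and *Mrpl46* (0.15) likewise had log2 fold changes near 0, with intervals that all lay within 1.5-fold. Thus, on this list, the members ran from *Mrps25*, at 11.9% of its control level, to *Mrps22*, at 150%.

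Promoter sequences of the 4 members that fell, and of *Mrps22* and *Mrpl42*, were compared for the ZNF143 motif. It was here taken as ACTACA followed after any 2 bases by TCCC and searched on both strands. The study also lists *Mrps22* and *Mrpl42* as targets, and they are shown as listed members that hold the motif but did not fall. Of 10 members on the list with a promoter, 4 (40%) held an exact match. The other listed members that did not fall and had a promoter held none and are not shown. The sequences are from RefSeq on GRCm38.p6, which held a promoter for 68 of 81 members, and run 5′ to 3′ on the strand of the gene from 250 bases before to 50 bases after the gene's start. Positions of the motif are counted from this RefSeq start. It can differ from the start in the GENCODE coordinates given above, as for *Mrpl34* and *Mrpl24*. Capitals mark the motif or, in *Mrps25*, its closest match. The regions are chr6:92183974-92184273 (minus) for *Mrps25*, chr8:71464676-71464975 (plus) for *Mrpl34*, chr3:87919294-87919593 (plus) for *Mrpl24*, chr2:130563507-130563806 (plus) for *Mrps26*, chr9:98601630-98601929 (minus) for *Mrps22* and chr10:95501900-95502199 (minus) for *Mrpl42*.
Mrps25: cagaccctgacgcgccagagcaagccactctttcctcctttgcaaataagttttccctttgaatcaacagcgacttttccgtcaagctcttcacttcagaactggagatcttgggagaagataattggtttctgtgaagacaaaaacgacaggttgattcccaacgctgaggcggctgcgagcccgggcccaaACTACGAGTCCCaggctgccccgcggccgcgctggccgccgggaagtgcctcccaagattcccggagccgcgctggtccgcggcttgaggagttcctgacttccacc
Mrpl34: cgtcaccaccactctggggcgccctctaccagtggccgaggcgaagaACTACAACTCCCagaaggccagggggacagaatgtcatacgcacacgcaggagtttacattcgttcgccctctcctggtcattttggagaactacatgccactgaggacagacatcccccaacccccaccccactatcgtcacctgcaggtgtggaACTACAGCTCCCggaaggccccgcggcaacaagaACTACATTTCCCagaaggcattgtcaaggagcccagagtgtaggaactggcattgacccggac
Mrpl24: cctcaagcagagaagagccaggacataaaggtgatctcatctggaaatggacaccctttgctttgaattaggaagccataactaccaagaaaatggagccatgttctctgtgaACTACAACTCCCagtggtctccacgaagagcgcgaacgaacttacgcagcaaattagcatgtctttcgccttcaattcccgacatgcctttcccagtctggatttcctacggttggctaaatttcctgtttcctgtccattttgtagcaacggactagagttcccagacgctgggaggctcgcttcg
Mrps26: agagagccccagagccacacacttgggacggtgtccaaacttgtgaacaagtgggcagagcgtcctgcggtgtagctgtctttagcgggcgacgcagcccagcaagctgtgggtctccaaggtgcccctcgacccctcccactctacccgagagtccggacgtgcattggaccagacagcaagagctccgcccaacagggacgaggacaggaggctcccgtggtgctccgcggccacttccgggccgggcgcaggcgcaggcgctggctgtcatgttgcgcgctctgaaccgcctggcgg
Mrps22: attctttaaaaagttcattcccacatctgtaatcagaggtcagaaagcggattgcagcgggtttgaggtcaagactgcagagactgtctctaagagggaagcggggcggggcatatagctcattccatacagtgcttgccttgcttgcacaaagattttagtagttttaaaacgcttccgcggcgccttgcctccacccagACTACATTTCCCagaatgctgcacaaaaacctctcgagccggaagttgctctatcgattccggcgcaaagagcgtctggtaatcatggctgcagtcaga
Mrpl42: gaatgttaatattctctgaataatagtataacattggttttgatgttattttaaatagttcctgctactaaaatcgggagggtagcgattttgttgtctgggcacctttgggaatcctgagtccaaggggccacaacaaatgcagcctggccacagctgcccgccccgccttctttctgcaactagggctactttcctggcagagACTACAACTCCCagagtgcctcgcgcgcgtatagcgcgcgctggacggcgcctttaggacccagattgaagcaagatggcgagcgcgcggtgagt

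The promoter of *Mrpl34* held the motif 3 times, beginning 203, 47 and 13 bases before the start. Of all 27025 genes with a RefSeq promoter, in the expression table or not, 3 held it 3 or more times. *Mrpl24* held it once, beginning 137 bases before the start. With 1 difference allowed *Mrpl24* had 2 matches, and the inexact one, nearer the end of the sequence, is left in lower case. *Mrps25* had no exact match and 1 match with a single difference, A6G (counted from the first base of the motif, its A first and the promoter's G last), beginning 57 bases before the start. *Mrps26*, which fell and is not on the target list, had neither, and the antisense gene *4930473A02Rik*, whose start is 7 bases from its own, is on the list. *Mrps22* and *Mrpl42* held the motif once each, 49 and 45 bases before the start, and did not fall. *Mrpl50*, not on the target list, held it too, with a log2 fold change of 0.26 (adjusted p = 0.273). In all, 5 of 68 members (7.35%) held an exact match, against 2.08% of all genes with a promoter and 4.46% of those among the tested genes. With 1 difference allowed, the shares were 10.3%, 4.58% and 7.74%. Among tested genes called lower that had a promoter, 96 of 351 (27.4%) held an exact match, and 40.2% with 1 difference allowed. Whether the motif goes with a fall of the members was not tested. The matches whose positions are given lay on the strand of the gene. A match in these letters is a description of the sequence and not evidence of binding.

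Other genes of mitochondrial translation were read from 4 lists. Of 5 mitoribosomal proteins whose symbols do not begin with *Mrp*, 1 fell (20%, against 2.99% of all tested genes). *Gadd45gip1*, which encodes mL64 of the large subunit, was at 30.4, 38.2 and 29.6 FPKM in *Znf143 f/f* libraries, compared with 23.6, 20.1 and 21.5 FPKM in *Znf143 -/-* libraries (log2 fold change -0.58, SE 0.124, adjusted p = 0.045). Its groups did not overlap. *Dap3*, *Aurkaip1*, *Chchd1* and *Ptcd3* were not called, with log2 fold changes between -0.06 and 0.10. Of 26 assembly factors, which modify the ribosomal RNAs or guide the joining of proteins to them, none fell, 1 rose and the median was 0.090. The gene that rose was *Mrm1*, a methyltransferase of the large ribosomal RNA, at 16.2, 15.3 and 15.1 FPKM against 19.5, 23.1 and 23.5 FPKM (log2 fold change 0.50, SE 0.0991, adjusted p = 0.0377). At an unadjusted p under 0.05, 1 of the assembly factors was lower and 3 were higher, and with voom 0 were called lower and 2 higher. Of all 19279 tested genes, 2269 were lower and 2391 higher at that threshold, and 745 and 656 with voom. Without overlap of the groups, 6 of 26 lay higher and 2 lower (23.1% and 7.69%, against 15.4% and 15.3% of all tested genes).

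Of 15 translation factors, 2 fell, 1 rose and 12 were not called, with a median of 0.114. The called genes were 20% of the list, against 5.99% of all tested genes. *Mtif2*, the initiation factor that brings the initiator tRNA to the ribosome, was at 10.1, 11.5 and 9.84 FPKM in *Znf143 f/f* libraries, compared with 5.97, 5.32 and 5.27 FPKM in *Znf143 -/-* libraries (log2 fold change -0.91, SE 0.105, adjusted p = 0.00695). *Mtrf1*, a member of the release factor family that ends translation, was at 7.51, 7.66 and 7.79 FPKM against 3.99, 4.1 and 4.56 FPKM (-0.85, SE 0.0959, adjusted p = 0.00668). *Mtrf1l*, its relative that reads most mitochondrial stop codons, went the other way, from 4.26, 4.61 and 4.26 to 5.96, 5.93 and 6.32 FPKM (0.46, SE 0.0932, adjusted p = 0.0391). In all 3 genes the groups were apart. *Mtif2* and *Mtrf1* are on the target list and *Mtrf1l* is not. With FPKM as deposited, the calls of *Mtrf1* and *Mtrf1l* (adjusted p 0.0697 and 0.121) and those of *Gadd45gip1* and *Mrm1* (0.146 and 0.117) were lost. Leaving out 1 library, *Mtif2* was not called without the third *Znf143 -/-* library and *Mtrf1* not without the third *Znf143 f/f* library, and the calls of *Mtrf1l*, *Gadd45gip1* and *Mrm1* were lost without any of the same 4 libraries as above, with adjusted p of up to 0.206, 0.179 and 0.181 over all alternatives. The elongation factors *Tufm*, *Tsfm* and *Gfm1* were not called (log2 fold changes 0.16, 0.05 and 0.40).

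Of the 13 mRNAs of the mitochondrial DNA, which the mitochondrial ribosome translates, 6 (46.2%) fell in *Znf143 -/-* cells, against 2.99% of all tested genes. None rose (0 with voom and 0 at an unadjusted p under 0.05), whereas 7 were lower with voom and 9 at that unadjusted p. The genes called with voom did not include *mt-Co3* and *mt-Atp8*, which are among the 6. Of all 19279 tested genes, 745 were lower with voom and 2269 at that unadjusted p. Without overlap of the groups, 10 of 13 (76.9%) lay lower, against 15.3% of all tested genes. The log2 fold change was below 0 for 12 of 13, with a median of -0.724. *mt-Cytb* was at 3435, 3647 and 3377 FPKM in *Znf143 f/f* libraries, compared with 1821, 1752 and 1699 FPKM in *Znf143 -/-* libraries (log2 fold change -0.99, SE 0.163, adjusted p = 0.0208). *mt-Nd4* fell from 1014, 862 and 900 to 493, 452 and 404 FPKM (-1.04, SE 0.132, adjusted p = 0.00902), and *mt-Nd5* from 609, 636 and 633 to 438, 344 and 355 FPKM (-0.73, SE 0.128, adjusted p = 0.0256). *mt-Co1*, *mt-Nd6*, *mt-Nd2* and *mt-Nd3* lay lower without overlap but were not called. Their log2 fold changes were -0.79, -0.95, -0.60 and -0.22 (adjusted p 0.0505, 0.0565, 0.0927 and 0.235). *mt-Nd1* was at 2935 ± 123 and 3044 ± 191 FPKM (SD, n = 3), with overlapping groups and a log2 fold change of 0.05 (95% confidence interval -0.37 to 0.48). The other genes that fell, *mt-Co3* (-0.61), *mt-Atp6* (-0.72) and *mt-Atp8* (-1.05), had mean levels of 9.05 FPKM or lower, far below *mt-Cytb*. Only 9 to 24 fragments per library lay on *mt-Atp8*. Nuclear copies of parts of the mitochondrial DNA exist in the mouse genome and the authors' handling of reads that match more than 1 place was not given in the sources used here, so that these levels are uncertain. All 6 calls were lost when the third *Znf143 f/f*, the second *Znf143 -/-* or the third *Znf143 -/-* library was left out, with log2 fold changes of -1.13 to -0.54 over the fits with 1 library left out. With FPKM as deposited, *mt-Co3*, *mt-Atp6* and *mt-Atp8* were not called (adjusted p 0.148, 0.12 and 0.0544). The call of *mt-Cytb* was also lost with no filter, and that of *mt-Co3* with no variance trend.

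**Figure D5:**
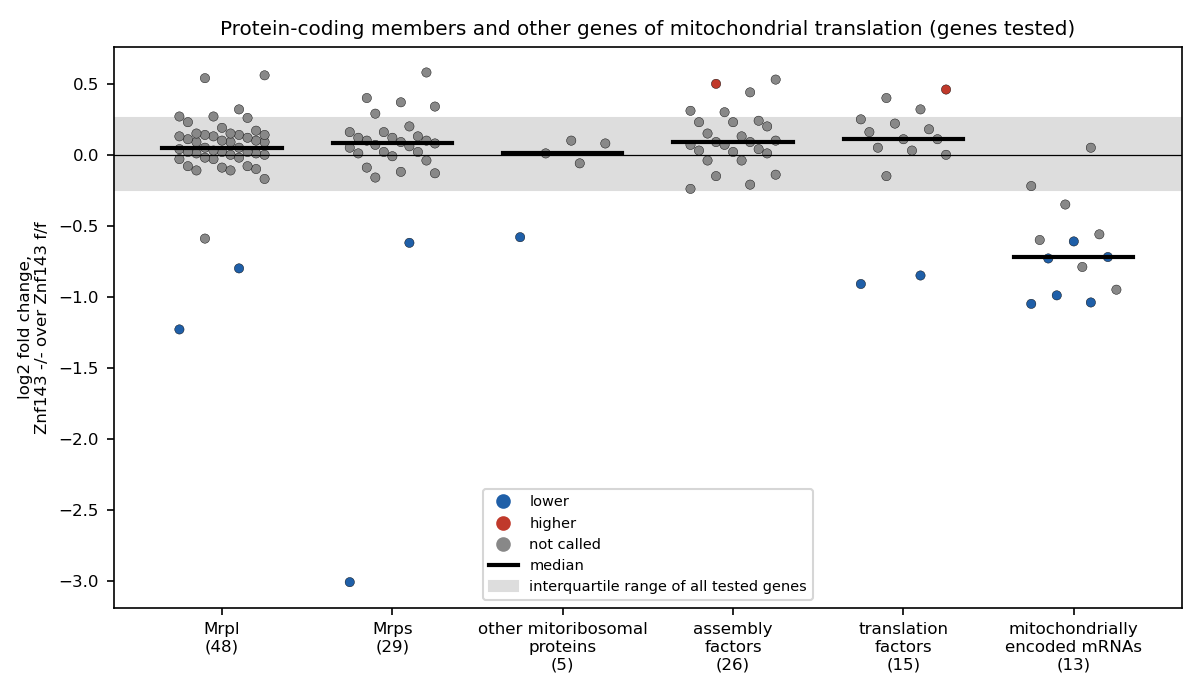
Log2 fold change (*Znf143 -/-* over *Znf143 f/f*, y axis) of the protein-coding *Mrpl* and *Mrps* genes and of 4 other lists of mitochondrial translation (number of genes tested under each name). Points are genes, blue and red mark those called lower and higher, black bars are medians and the grey band is the interquartile range of all tested genes; the mitochondrially encoded mRNAs have a median of -0.724, and the medians of the other lists lie between 0.013 and 0.114.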

How the data were processed

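RNA-seq libraries of 3 *Znf143 f/f* and 3 *Znf143 -/-* mice were grouped by their labels. According to the study's methods, RNA with a RIN above 8 was amplified with SMART-Seq v4, and the authors used TrimGalore on the reads, STAR for alignment to GRCm38, FeatureCounts for counting and DESeq2 for testing. The strand setting and the annotation of the counting are not given in the sources used here. The authors deposited the FPKM of each library beside gene lengths; other columns hold their mean count, fold change with its error, test statistic, p-value and adjusted p-value and were not used. The authors' FPKM times length gave whole fragments (within 0.05) for 99.986% of values. The third *Znf143 -/-* library had been divided by the total of the second (48378188 against 57895793 fragments of its own), so median-of-ratios size factors over 19046 genes were used to rescale the FPKM. Fragments are not independent molecules, so that counting floors cover counting error only.

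Genes with a mean of at least 0.1 FPKM were put on the scale log2(FPKM + 0.1) and tested in limma 3.58.1 (lmFit, eBayes with trend, R 4.3.3), Benjamini-Hochberg adjusted over 19279 genes. On this scale the changes of low genes are understated. The mice were pairs of littermates per the study's supplement, which does not say which libraries form a pair, so that the fit has no pairs and p-values measure the spread between these mice. The fit was tested on simulated counts, drawn independently for each gene and library. They held no pattern by gene length, so that this does not cover the differences between libraries described above. The members and lists were chosen with earlier results of these data known. Named genes are members called or on the study's target list, the 5 highest and 5 lowest in each subunit, called genes of the other lists, and *Zfp143*. Coordinates are from GENCODE M21. *Mrpl53* was not analysed here, and *Mtrfr* was not found under this symbol. Of the 81 members, 13 had no promoter entry (*Mrpl4*, *Mrpl13*, *Mrpl15*, *Mrpl19*, *Mrpl38*, *Mrpl54*, *Mrps28*, *Mrps34*, *Mrps35* and the 4 pseudogenes). The alternatives were pseudocounts of 0.01 and 1, no filter or a mean of at least 1 FPKM, FPKM as deposited, the own total as divisor of the third *Znf143 -/-* library, voom on fragments, no variance trend, the replicate number as a block, other subunit assignments, and each library left out. Leaving out 2 libraries together was added after the data were seen.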

Additional observations from a re-analysis of the deposited data

How the results depend on the processing

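With FPKM as deposited, 1 small subunit member (*Mrps25*) and 5 genes of the other 4 translation lists were called, in place of 2 and 11. The median log2 fold change over all tested genes then moved from 0.006 to 0.114, with 0.161 in the large and 0.195 in the small subunit, and the calls over all genes split into 304 lower and 529 higher in place of 576 and 578. With the replicate number as a block, 191 genes were called in all, 0 large subunit members, 1 small subunit member (*Mrps25*) and 0 genes of the translation lists. Deviations of libraries with the same number were correlated at -0.095, -0.088 and 0.035, so that the numbers were not taken as pairs. The study describes the mice as 3 pairs of littermates, but no source used here ties these pairs to the numbers. Under the block, adjusted p was 0.118 for *Mrpl34*, 0.0891 for *Mrpl24*, 0.0957 for *Mrps26* and 0.137 for *Mrpl48-ps*. Leaving out 1 library, the calls ran from 223 to 2280 over all genes, from 0 to 5 in the large subunit, from 1 to 4 in the small subunit and from 1 to 15 in the translation lists, with the highest counts without the second *Znf143 f/f* (2280 genes) or the first *Znf143 -/-* library (2112). The median log2 fold change then ran from -0.036 to 0.155 in the large and from -0.017 to 0.137 in the small subunit. *Zfp143* ran from -3.62 to -3.30. With both of these libraries left out, an alternative chosen after seeing the data, 8108 genes were called, 19 in the large subunit, 14 in the small subunit and 32 in the translation lists. All other alternatives kept these counts within 1.5 times.

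The sign changed for some members that were not called. With FPKM as deposited the log2 fold changes were 0.02 for *Mrpl37*, 0.00 for *Mrpl42*, 0.07 for *Mrpl23-ps1*, 0.04 for *Mrpl14* and 0.11 for *Mrps24*, which was 0.02 when the own total was the divisor of the third *Znf143 -/-* library. With both libraries left out they were -0.02 for *Mrpl47* and 0.03 for *Mrps36-ps2*. With 1 library left out, values ran from -0.08 to 0.26 for *Mrpl11*, -0.04 to 0.14 for *Mrpl17*, -0.10 to 0.14 for *Mrpl47*, -0.04 to 0.09 for *Mrpl28*, -0.19 to 0.07 for *Mrpl23-ps1*, -0.25 to 0.03 for *Mrpl14*, -0.41 to 0.02 for *Mrps21*, -0.16 to 0.14 for *Mrps24*, -0.02 to 0.35 for *Mrps36-ps1* and -0.05 to 0.23 for *Mrps14*. The cause of these shifts was not tested. With 3 mice per genotype, changes smaller than the confidence intervals given above were not detectable.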

Other observations

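Genes beside the 4 members that fell, chosen after the values of these members were seen, were read from the same fit. *Abhd8*, which lies on the other strand with its start 1304 bases from that of *Mrpl34*, fell from 23.6 ± 2.82 to 16.2 ± 0.459 FPKM (SD, n = 3), a log2 fold change of -0.53 (SE 0.106, adjusted p = 0.038), and is not on the study's target list. *Dda1*, 4240 bases from the start of *Mrpl34*, was at 38.6 ± 1.64 and 37.4 ± 1.53 FPKM (-0.05, adjusted p = 0.761), and is on the list. *Nr2c2*, which overlaps *Mrps25* by 4770 bases on the other strand, was at 2.1 ± 0.148 and 1.71 ± 0.0902 FPKM (-0.28, adjusted p = 0.243), and *Rrnad1*, which overlaps *Mrpl24* by 1072 bases, was at 2.22 ± 0.198 and 2.05 ± 0.0773 FPKM (-0.10, adjusted p = 0.667). The antisense gene *4930473A02Rik* at the start of *Mrps26* was at 0.452 ± 0.201 and 0.284 ± 0.0472 FPKM (-0.46, adjusted p = 0.447), and is on the list, whereas *Mrps26* is not. Their starts lie 7 bases apart. Since the strand setting of the counting is not given in the sources used here, reads of overlapping genes may not have been told apart.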
